A study of Bos taurus with 8 samples.

Results

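The proteasome genes described here are those whose probes carry a PSMA, PSMB, PSMC, PSMD, PSME, PSMF or PSMG symbol in the scanner files. The rule gave 47 genes, measured by 101 probes, of 17041 genes that could be named on the array. They comprised an immunoproteasome set of 5 genes (PSMB8, PSMB9, PSMB10, PSME1 and PSME2), 34 constitutive genes, 7 genes for assembly chaperones, and PSMB11, the thymus-type catalytic subunit. The cells were labelled as primary bovine Müller glia, the radial support cells of the retina, grown in DMEM for 18 to 21 days. The Control group was 2 arrays (letters A and B), the TAT group 3 arrays (A, B and C) given HIV-1 TAT, the viral transactivator protein, at 100 ng/ml, and the Gp120 group 3 arrays (A, B and C) given HIV-1 gp120, the viral envelope protein, at 60 ng/ml, each treatment for 24 h. The treatment text names both proteins for every sample, controls included, so the groups follow the sample titles alone, and the extraction text speaks of astrocytes. Neither animals nor cultures are named behind the letters, so every p-value here reflects no more than the scatter among the 8 arrays, which may be technical.

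The proteasome is the barrel-shaped protease that degrades ubiquitin-tagged proteins. Its core is built of stacked rings of alpha (PSMA) and beta (PSMB) subunits, and PSMB5, PSMB6 and PSMB7 hold the constitutive active sites. Interferon gamma induces PSMB8, PSMB9 and PSMB10, which replace PSMB5, PSMB6 and PSMB7 in newly built particles to give the immunoproteasome, and it also induces PSME1 and PSME2, which form the PA28 cap. Immunoproteasomes cut proteins into peptides suited to MHC class I, and in the retina they are known from glia, microglia and immune cells. In bulk RNA, fewer cells of a type and less RNA per cell cannot be told apart.

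The stretches read by the probes show what was measured for the inducible genes. Each line below gives 1 60-base probe of the immunoproteasome set as it stands in the scanner files, 5′ to 3′, and capitals mark the only reading frame of the probe that holds no stop codon; the PSME2 probe is open in 2 frames and has none marked.
PSMB8: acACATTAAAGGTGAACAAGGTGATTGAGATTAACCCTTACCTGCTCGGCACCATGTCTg
PSMB9: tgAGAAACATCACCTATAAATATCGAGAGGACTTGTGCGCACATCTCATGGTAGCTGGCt
PSMB10: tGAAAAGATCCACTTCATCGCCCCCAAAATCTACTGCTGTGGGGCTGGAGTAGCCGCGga
PSME1: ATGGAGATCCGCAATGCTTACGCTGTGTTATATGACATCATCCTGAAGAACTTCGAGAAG
PSME2: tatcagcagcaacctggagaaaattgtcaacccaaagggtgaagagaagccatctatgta

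These printed probes are placed on the bovine build Btau_3.1. The PSMB8 probe lies at chr23:7381745-7381804 on the minus strand and the PSMB9 probe at chr23:7398455-7398514 on the plus strand, so both genes sit close together, in the MHC region of the genome. The PSMB10 probe spans chr18:34441558-34441728 on the minus strand, and the PSME1 probe spans chr10:21292296-21292518, also on the minus strand. Both spans are longer than the 60 bases of the probe. The PSME2 probe lies at chr10:21287067-21287126 on the plus strand, next to PSME1. An exon annotation of this build was not used here. The longest run of bases in common between any probe of PSMB8 and the probe of PSMB5 was 6 bases, between PSMB9 and PSMB6 it was 8 bases, and between PSMB10 and PSMB7 it was 5 bases. Over all pairs of different proteasome genes the longest shared run was 12 bases.

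Intensities were scaled by subtracting, on the log2 scale, each array's 75th percentile, so a value of 0 is the intensity at that percentile, and values compare arrays, not probes. Of the 101 probes, 92 were well above background on all 8 arrays. The 9 others included probes for PSMA1, PSMA7, PSMB3 and PSMD7 that were well above background on 0 arrays, each beside a brighter probe of the same gene. PSMB11 had a single probe, well above background on 5 of 8 arrays, and its values lay between -5.33 and -4.13. The other 46 genes had a brightest probe well above background on all 8 arrays, so the constitutive, inducible and activator genes were all measurable in every group. PSMB11 entered the test only through a group in which all arrays passed, and its values near background carry little information.

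The arrays came from 1 slide and had 55.46% to 64.62% of probes well above background. Of 16 listed Müller glia markers, 11 were well above background on all 8 arrays, among them GLUL, SLC1A3 and VIM, whereas RLBP1 and GFAP were above it on 2 arrays each and KCNJ10 on 1. Of 14 markers of microglia and macrophages, which express immunoproteasome genes strongly, 13 were above background on all 8 arrays, including PTPRC, SPI1 and C1QA. The summed scaled signal of those 14 genes ran from 500.5 to 684.2 in Control, 531.7 to 593.1 in TAT and 459.3 to 610.8 in Gp120. The part of such cells in the values below was not tested.

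With TAT, 0 of the 47 proteasome genes passed the test against Control. Fitted with limma over 12035 genes with Benjamini-Hochberg adjustment, 0% of all genes passed an adjusted p of 0.05, and the smallest adjusted p of any proteasome gene was 0.999. At an unadjusted p under 0.05 the fit held 158 genes, 0 of them proteasome genes. The immunoproteasome set had a median log2 difference of 0.01 (3 genes above 0 and 2 below), the constitutive genes one of -0.05 (12 above and 22 below), and all 12035 genes one of -0.03. The median 95% interval of a proteasome gene reached 0.61 to either side of its estimate, before any adjustment over genes. Of the marker lists, 9 of 9 tested fibroblast genes were above 0 with TAT (median 0.83; 0 passed), and their summed scaled signal was 160.4 to 164.7 in Control, 215.5 to 299.2 in TAT and 157.7 to 201.2 in Gp120. Their part in the values was not tested.

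**Figure D1:**
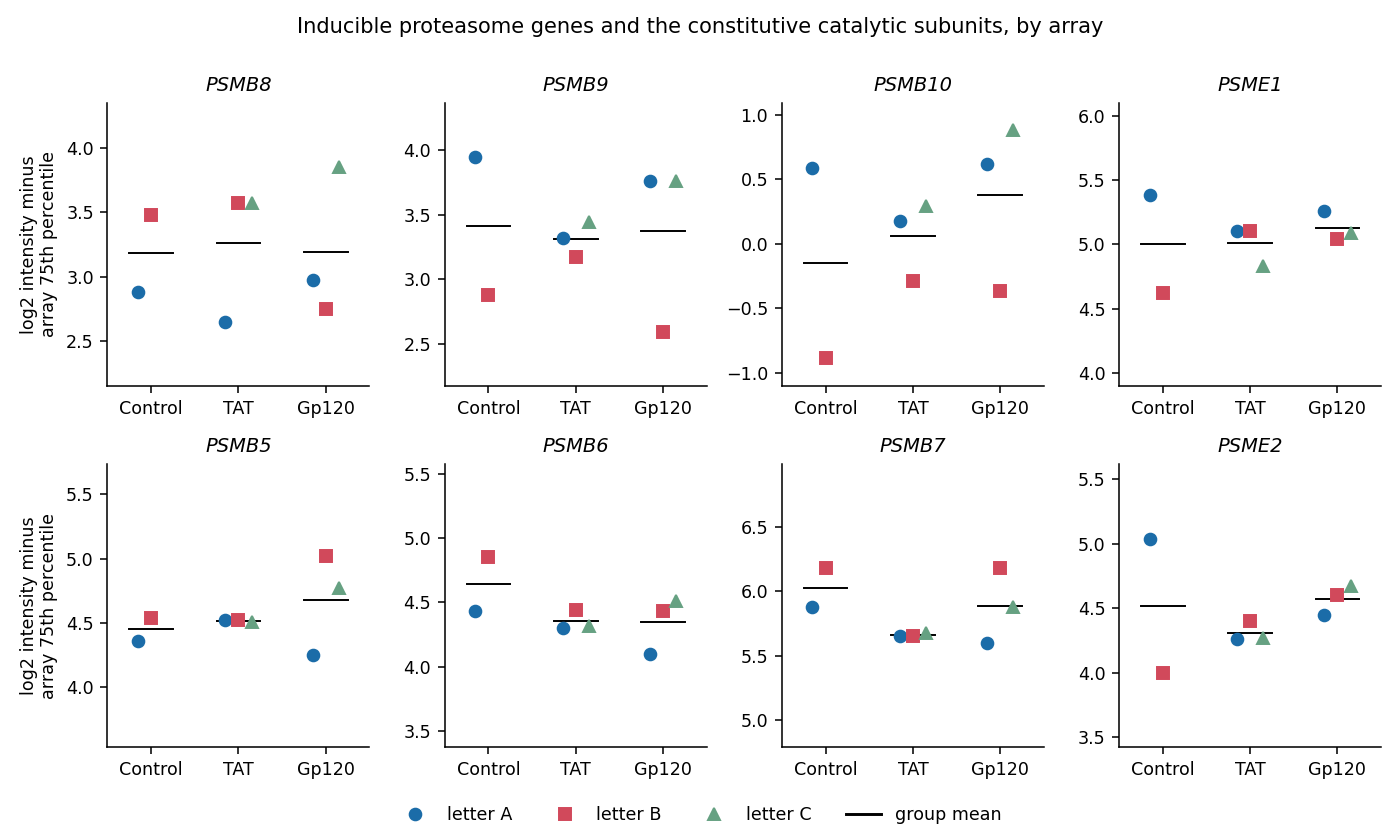
Scaled log2 intensity (y axis, each panel spanning the same 2.2 log2 units; panels differ in position and are not to be compared in level) of the inducible genes PSMB8, PSMB9, PSMB10, PSME1 and PSME2 and of the constitutive catalytic genes PSMB5, PSMB6 and PSMB7, by treatment group. Points are single arrays marked by letter and lines are group means; the group means lie close together, and PSMB10 of letter B lies below letters A and C in each group.

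None of the 3 inducible catalytic subunits passed against Control, and the arrays of the groups overlapped for each. PSMB8, which replaces PSMB5 and carries the chymotrypsin-like activity, was 2.88 and 3.48 in Control A and B, 2.65, 3.57 and 3.57 in TAT A, B and C, and 2.97, 2.75 and 3.85 in Gp120 A, B and C. The groups overlapped, with the low arrays being the 3 of letter A and Gp120 B. The TAT minus Control difference was 0.08 (SE 0.43; 95% interval -0.92 to 1.08) and the Gp120 minus Control difference was 0.01 (SE 0.43; -0.99 to 1.01), both with an adjusted p of 0.999 by limma.

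PSMB9, which replaces PSMB6, was 3.95 and 2.88 in Control, 3.32, 3.17 and 3.44 in TAT, and 3.76, 2.59 and 3.76 in Gp120, in letter order. Control A was the highest of the 8 arrays and Gp120 B the lowest, and the TAT arrays lay between the 2 controls. The differences were -0.11 (SE 0.44; -1.14 to 0.92) for TAT and -0.05 (SE 0.44; -1.08 to 0.98) for Gp120 against Control. PSMB10, which replaces PSMB7 and has the trypsin-like activity, was 0.59 and -0.89 in Control, 0.18, -0.29 and 0.29 in TAT, and 0.62, -0.37 and 0.88 in Gp120. Control B was the lowest array and Gp120 C the highest, and the groups overlapped. Its differences from Control were 0.21 (SE 0.52; -1.0 to 1.42) with TAT and 0.53 (SE 0.52; -0.68 to 1.74) with Gp120.

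PSME1 and PSME2, the alternating subunits of the PA28 cap that opens the core, had controls that lay apart. PSME1 was 5.38 and 4.62 in Control, 5.10, 5.10 and 4.83 in TAT, and 5.26, 5.04 and 5.09 in Gp120. PSME2 was 5.04 and 4.00 in Control, 4.26, 4.40 and 4.27 in TAT, and 4.45, 4.60 and 4.67 in Gp120. For both genes, by the brightest probe, the highest and the lowest of the 8 arrays were the 2 controls. All 6 treated arrays lay between them. The other PSME2 probe gave the same, but in the other PSME1 probe TAT C, at 4.36, lay just below Control B, at 4.40. This order was not particular to these genes. By its brightest probe the constitutive gene PSMB4 also had Control A highest, at 5.67, and Control B lowest, at 5.45. The SD of PSME2 was 0.74 in Control (n = 2), 0.08 in TAT (n = 3) and 0.11 in Gp120 (n = 3). The TAT minus Control difference was 0.01 (SE 0.26) for PSME1 and -0.21 (SE 0.30) for PSME2, and the Gp120 minus Control difference was 0.13 (SE 0.26) and 0.06 (SE 0.30).

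The 2 controls therefore set these comparisons. Control A exceeded Control B by 1.49 for PSMB10 (2.8-fold), 1.07 for PSMB9 (2.1-fold), 1.04 for PSME2 (2.06-fold) and 0.76 for PSME1 (1.7-fold), while PSMB8 was lower in Control A by -0.60. The first 3 of these were the largest in size among the 47 genes. Over the constitutive genes the same difference had a median of -0.08 (12 above 0 and 22 below; range -0.50 to 0.71), and over all 12035 genes it had a median of 0.02. When Control A was left out, the median TAT minus Control difference of the immunoproteasome set was 0.39 and its Gp120 minus Control median was 0.51. Without Control B these medians were -0.53 and -0.25, so the sign of both rested on which control was kept.

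The same-letter pairs showed this directly. In letter A, TAT minus Control was below 0 for all 5 immunoproteasome genes (median -0.41, from -0.78 for PSME2 to -0.24 for PSMB8), and in letter B it was above 0 for all 5 (median 0.40, from 0.09 for PSMB8 to 0.60 for PSMB10). The constitutive genes had medians of -0.03 and -0.13 in those 2 pairs, and all genes had -0.05 and -0.04. With Gp120, the letter A pair had 2 of the 5 genes above 0 (median -0.12) and the letter B pair 3 of 5 (median 0.43), in which PSMB8 was at -0.73 and PSME2 at 0.61. Each pair is 1 array against 1 array, so these signs have no replicate behind them within a letter. With the letter as a replicate block the limma fit still called 0 proteasome genes in the 3 treatment comparisons, while genes with an unadjusted p under 0.05 rose from 158 to 576 with TAT and from 340 to 722 with Gp120.

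**Figure D2:**
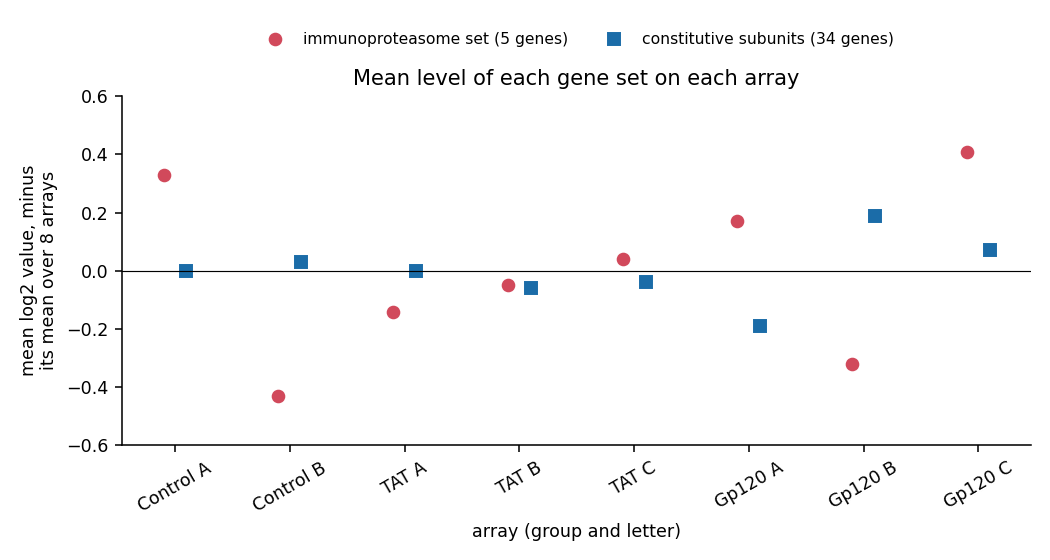
Mean scaled log2 value of the 5 immunoproteasome genes (circles) and the 34 constitutive genes (squares) on each of the 8 arrays, each series shifted to a mean of 0 over the arrays (y axis, log2). The immunoproteasome mean runs from -0.43 in Control B to 0.41 in Gp120 C, and the constitutive mean stays between -0.19 and 0.19.

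Set against the constitutive genes, the immunoproteasome genes gave group means closer together than the spread between arrays. The gap, the mean of the 5 genes minus the mean of the 34 on each array and centred over the arrays, was 0.32 and -0.46 in Control, -0.14, 0.01 and 0.08 in TAT, and 0.36, -0.52 and 0.34 in Gp120. The group means were -0.07 ± 0.55 (SD, n = 2), -0.02 ± 0.11 (n = 3) and 0.06 ± 0.50 (n = 3). The TAT group differed from Control by 0.05 and the Gp120 group by 0.13, against a pooled SD between arrays of a group of 0.41. The TAT arrays lay close together, and in Control and Gp120 the letter B array was well below the letter A array.

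Each inducible subunit was also set against the subunit it replaces, as a difference of log2 values within an array, centred over the 8 arrays. PSMB10 minus PSMB7 was 0.42 and -1.36 in Control, 0.24, -0.23 and 0.32 in TAT, and 0.73, -0.84 and 0.72 in Gp120. Every letter B array was below 0 and every array of letters A and C was above it. PSMB9 minus PSMB6 was 0.58 and -0.91 in Control, 0.09, -0.20 and 0.18 in TAT, and 0.72, -0.78 and 0.31 in Gp120, with the same division by letter. PSMB8 minus PSMB5 did not divide this way: it was -0.13 and 0.29 in Control, -0.53, 0.40 and 0.40 in TAT, and 0.07, -0.93 and 0.43 in Gp120. The group means of all 3 differences lay within 1 pooled SD of each other.

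With gp120, 0 of the 47 genes passed against Control either. Of all 12035 genes 0% passed (limma, Benjamini-Hochberg), 340 had an unadjusted p under 0.05, of which 0 were proteasome genes, and the smallest adjusted p of a proteasome gene was 0.998. The immunoproteasome set had a median of 0.06 (4 above 0 and 1 below), the constitutive genes 0.01 (17 above and 17 below) and all genes -0.01. Between TAT and Gp120 0% of genes passed as well, with 328 at an unadjusted p under 0.05, again 0 of them proteasome genes. In that comparison 26 of the 34 constitutive genes were below 0 (median -0.09) and 4 of the 5 immunoproteasome genes (median -0.12), beside 6445 of 12035 genes (median -0.02). The same-letter pairs did not share these signs. For the constitutive genes 27 of 34 were above 0 in letter A (median 0.15), and 27 of 34 were below 0 in B (median -0.25) and 24 of 34 in C (median -0.17). For the immunoproteasome set all 5 were below 0 in A (median -0.33) and C (median -0.32), and 4 of 5 were above 0 in B (median 0.07). Gp120 B and C came from 1 scan and the 6 other arrays from another, so with the scan as a block Gp120 rests on Gp120 A alone, and the constitutive median of TAT minus Gp120 was then 0.16. The part of the scan was not tested.

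**Figure D3:**
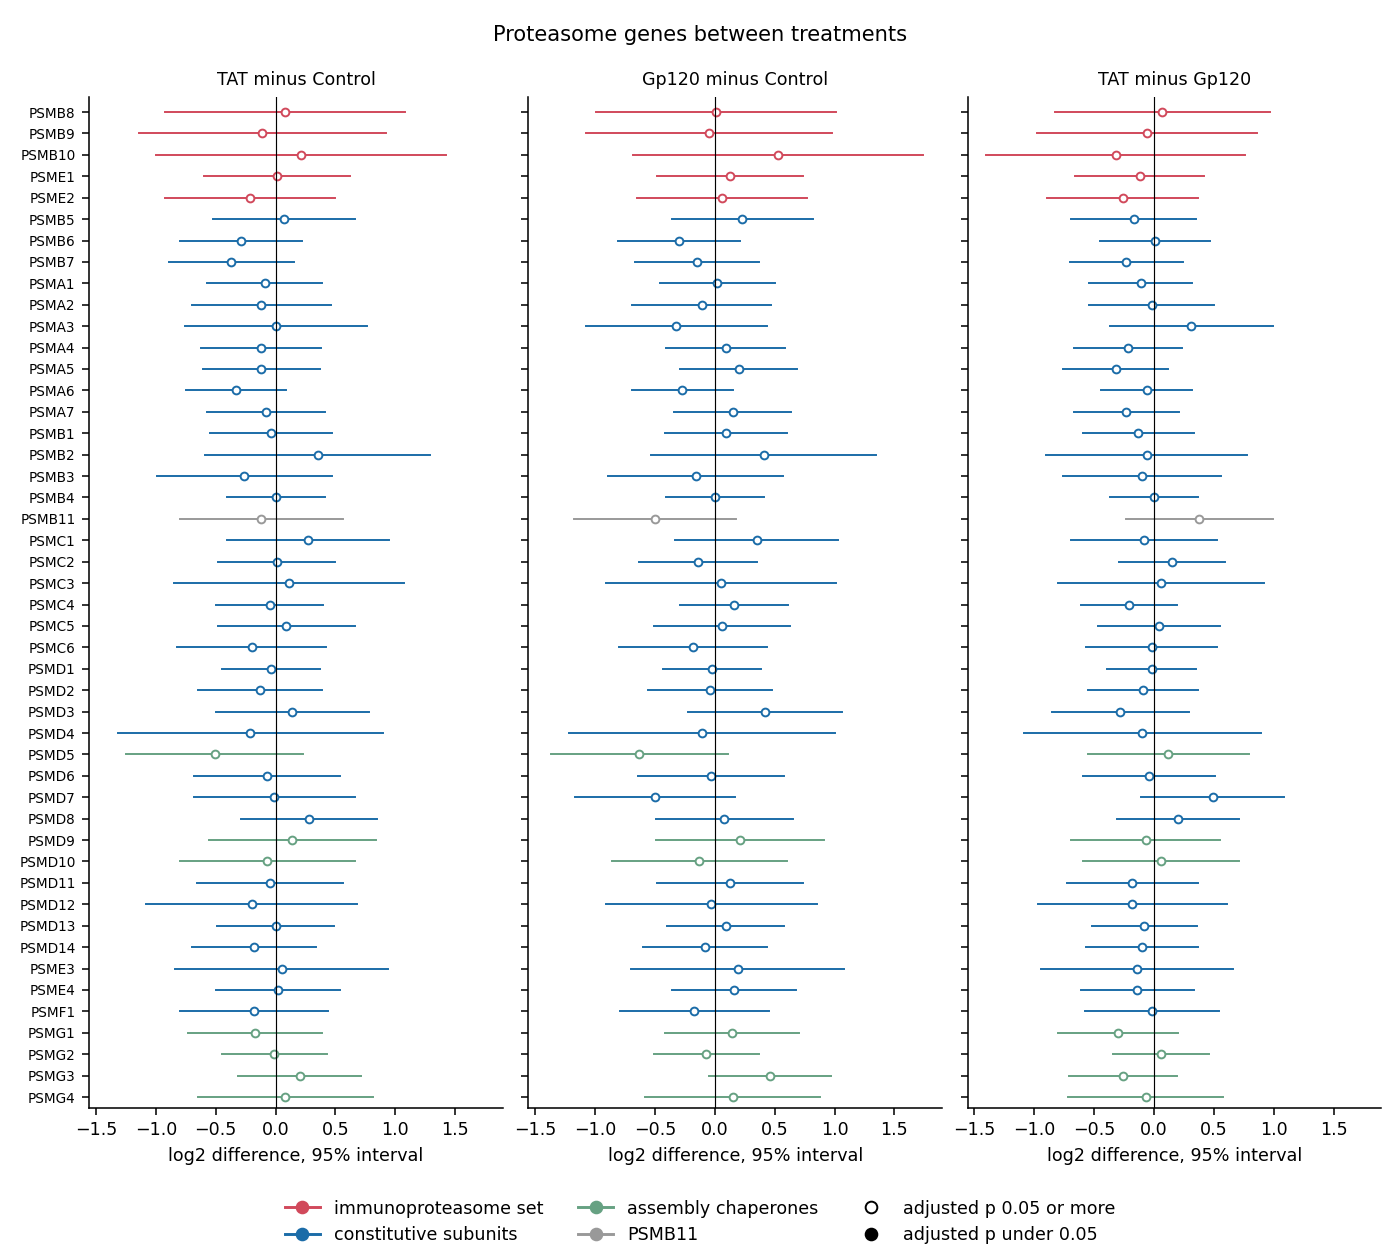
Log2 difference between groups (x axis, the same in each panel) with its 95% interval from limma for all 47 proteasome genes, for TAT minus Control, Gp120 minus Control and TAT minus Gp120. All points are open, since no gene had an adjusted p under 0.05, and every interval crosses 0.

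Of the constitutive catalytic subunits, PSMB7 had the largest difference from Control. PSMB5 was 4.36 and 4.54 in Control, 4.52, 4.52 and 4.51 in TAT, and 4.25, 5.02 and 4.77 in Gp120, and its differences from Control were 0.07 (SE 0.25) and 0.23 (SE 0.25). PSMB6 was 4.43 and 4.85 in Control, 4.30, 4.44 and 4.32 in TAT, and 4.10, 4.43 and 4.51 in Gp120, with differences of -0.29 (SE 0.22) and -0.30 (SE 0.22). PSMB7 was 5.88 and 6.18 in Control, 5.65, 5.65 and 5.68 in TAT, and 5.60, 6.18 and 5.88 in Gp120. All 3 TAT arrays of PSMB7 lay below both controls, and the difference was -0.37 (SE 0.22; 95% interval -0.89 to 0.15; adjusted p = 0.999 by limma). Its other probe, well above background on all 8 arrays, gave -0.35.

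By the brightest probe, few genes had TAT or Gp120 arrays wholly on one side of the controls. Above both controls with TAT were PSMC1, an ATPase of the regulatory particle, and PSMG3, an assembly chaperone, 2 of 47 genes against 4.92% of all genes. Below both were PSMA6, PSMB3 (a structural beta subunit), PSMB7 and PSMD2 (a scaffold of the base), 4 of 47 against 9.11%. With Gp120, PSMA5 and PSMG3 were above both controls, against 5.49% of all genes, and PSMA6 and PSMD5 were below both, against 7.46%. Between the treated groups 0 of 47 genes had every TAT array above every Gp120 array (3.06% of all genes), and PSME2 alone had every TAT array below (3.62%). These counts of proteasome genes, 1 to 4 of 47, are near the background. The placements also depended on the probe. In the other PSMB3 probe well above background, TAT was 2.89, 2.88 and 2.83, above both controls, at 2.78 and 2.80. With Gp120 the second probes of PSMA5 and PSMD5 overlapped the controls, and the other PSME2 probe overlapped between TAT and Gp120. The second PSMB7 probe again had every TAT array below both controls.

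PSMA6, an alpha ring subunit, had the smallest unadjusted p with TAT. It was 6.11 and 6.02 in Control, 5.87, 5.67 and 5.68 in TAT, and 5.90, 5.70 and 5.80 in Gp120. Both treated groups lay below the controls, by -0.33 (SE 0.18) with TAT and by -0.27 (SE 0.18) with Gp120, with adjusted p of 0.999 and 0.998 by limma. The same-letter pairs were -0.25 and -0.35 with TAT and -0.21 and -0.32 with Gp120, and both pairs of a letter share its control. Its 3 probes did not all have one sign with Gp120. In one of the others TAT A, at 5.93, and Gp120 A, at 6.02, lay above both controls, at 5.91 and 5.78. PSMD5, a chaperone of the regulatory particle base, was 3.31 and 2.92 in Control, 2.97, 2.64 and 2.20 in TAT, and 2.91, 2.39 and 2.16 in Gp120, with differences of -0.51 (SE 0.32) and -0.63 (SE 0.32). The arrays of letter C, which has no control, were its lowest.

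PSMG3, which pairs with PSMG4 to help assemble the alpha ring, had the smallest unadjusted p with Gp120. It was 2.12 and 2.06 in Control, 2.32, 2.22 and 2.33 in TAT, and 2.23, 2.62 and 2.81 in Gp120. By this probe, its brightest, all treated arrays lay above both controls, by 0.20 (SE 0.22) with TAT and 0.46 (SE 0.22; adjusted p = 0.998 by limma) with Gp120. Its other probe, well above background on all 8 arrays, gave 0.32 and 0.46. In that probe TAT A, at -1.62, and Gp120 A, at -1.74, were not above Control B, at -1.50. Of the lid and base genes, PSMD7, a partner of the deubiquitinase PSMD14, had -0.50 (SE 0.29) with Gp120, and 0.49 (SE 0.26) in TAT minus Gp120. PSMD3, a lid subunit, had 0.42 (SE 0.27) with Gp120, and PSMD8, another lid subunit, 0.28 (SE 0.24) with TAT. All adjusted p-values for these genes were 0.998 or more by limma.

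By role, TAT minus Control had a median of -0.12 over the 7 alpha subunits, all of them below 0, of -0.02 over the 4 structural beta subunits, of 0.05 over the 6 ATPases and of -0.05 over the 11 other regulatory particle subunits. With Gp120 these medians were 0.02, 0.04, 0.05 and -0.03. The single values behind the alpha subunit median were small: its largest, that of PSMA6, had a 95% interval from -0.75 to 0.09. PSMA3 was at -0.00, and 6558 of all 12035 genes were below 0 with TAT. The shared sign also rested on the brightest probes. A further probe of PSMA4 gave 0.15 and one of PSMA7 gave 0.08, while the remaining alpha subunit probes well above background on all 8 arrays were below 0. The other activators and the inhibitor did not pass either. PSME3, the PA28 gamma cap of the nucleus, was 0.22 and 0.72 in Control, 0.26, 0.53 and 0.76 in TAT, and -0.08, 1.11 and 0.95 in Gp120, with differences of 0.05 (SE 0.38) and 0.19 (SE 0.38). PSME4, the PA200 activator, had 0.02 (SE 0.22) and 0.16 (SE 0.22), and PSMF1, the PI31 regulator, had -0.18 (SE 0.27) and -0.17 (SE 0.27).

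Different probes of a gene did not always have the same sign for such small differences. Of 30 genes with several probes well above background on all 8 arrays, 18 had one sign over all of them for TAT minus Control and 17 for Gp120 minus Control. Among the disagreeing genes were PSMB9 and PSME1 with TAT and PSMB9 and PSME2 with Gp120. The 3 PSMB9 probes had -0.11, 0.11 and -0.02 with TAT. The 3 PSMB8 probes had 0.08, 0.38 and 0.32 with TAT and 0.01, 0.54 and 0.43 with Gp120, the brightest giving the smallest. PSMC1 had 0.27 with TAT and 0.35 with Gp120 by its brightest probe, and 1.09 and 0.98 by its other probe. That other probe was well above background on all 8 arrays and was not tested on its own. Between letters the probes were in better accord: 24 of the 30 genes had one sign over their probes for letter A minus letter B, averaged over the 3 groups.

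Of the inducible genes, PSMB10 passed a test between replicate letters. Same-letter arrays deviated together from their group means over all genes (correlations of 0.377 to 0.74, against -0.654 to 0.417 for different letters). PSMB10 was higher in letter A than in letter B by 0.98 (SE 0.22; adjusted p = 0.0350 by limma with group in the fit), in 3 of 3 groups. PSMB9 differed the same way by 0.80 (SE 0.24; adjusted p = 0.0710), and PSMB8 was lower in letter A than in letter C by -0.94 (SE 0.30; adjusted p = 0.0772), neither passing. PSMB10 and PSMB9 were also lower in B than in C, by -1.04 (SE 0.26; adjusted p = 0.139) and -0.79 (SE 0.28; adjusted p = 0.242). PSME1 and PSME2 had differences of 0.33 (SE 0.19) and 0.25 (SE 0.26) between A and B.

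At an adjusted p under 0.05 by limma, 7.28% of all genes were called higher in letter A than in letter B and 8.42% lower. Against letter C, 7.99% were called higher in A and 9.15% lower. For B minus C these shares were 1.08% and 0.415%. Of the 47 proteasome genes 1 was called higher and 1 lower in A than in B, 1 higher and 2 lower in A than in C, and 0 in either direction between B and C (2 at an unadjusted p under 0.05). The counts of 1 or 2 of 47 genes are 2.13% and 4.26%, below the background shares for A, and no test compared them.

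**Figure D4:**
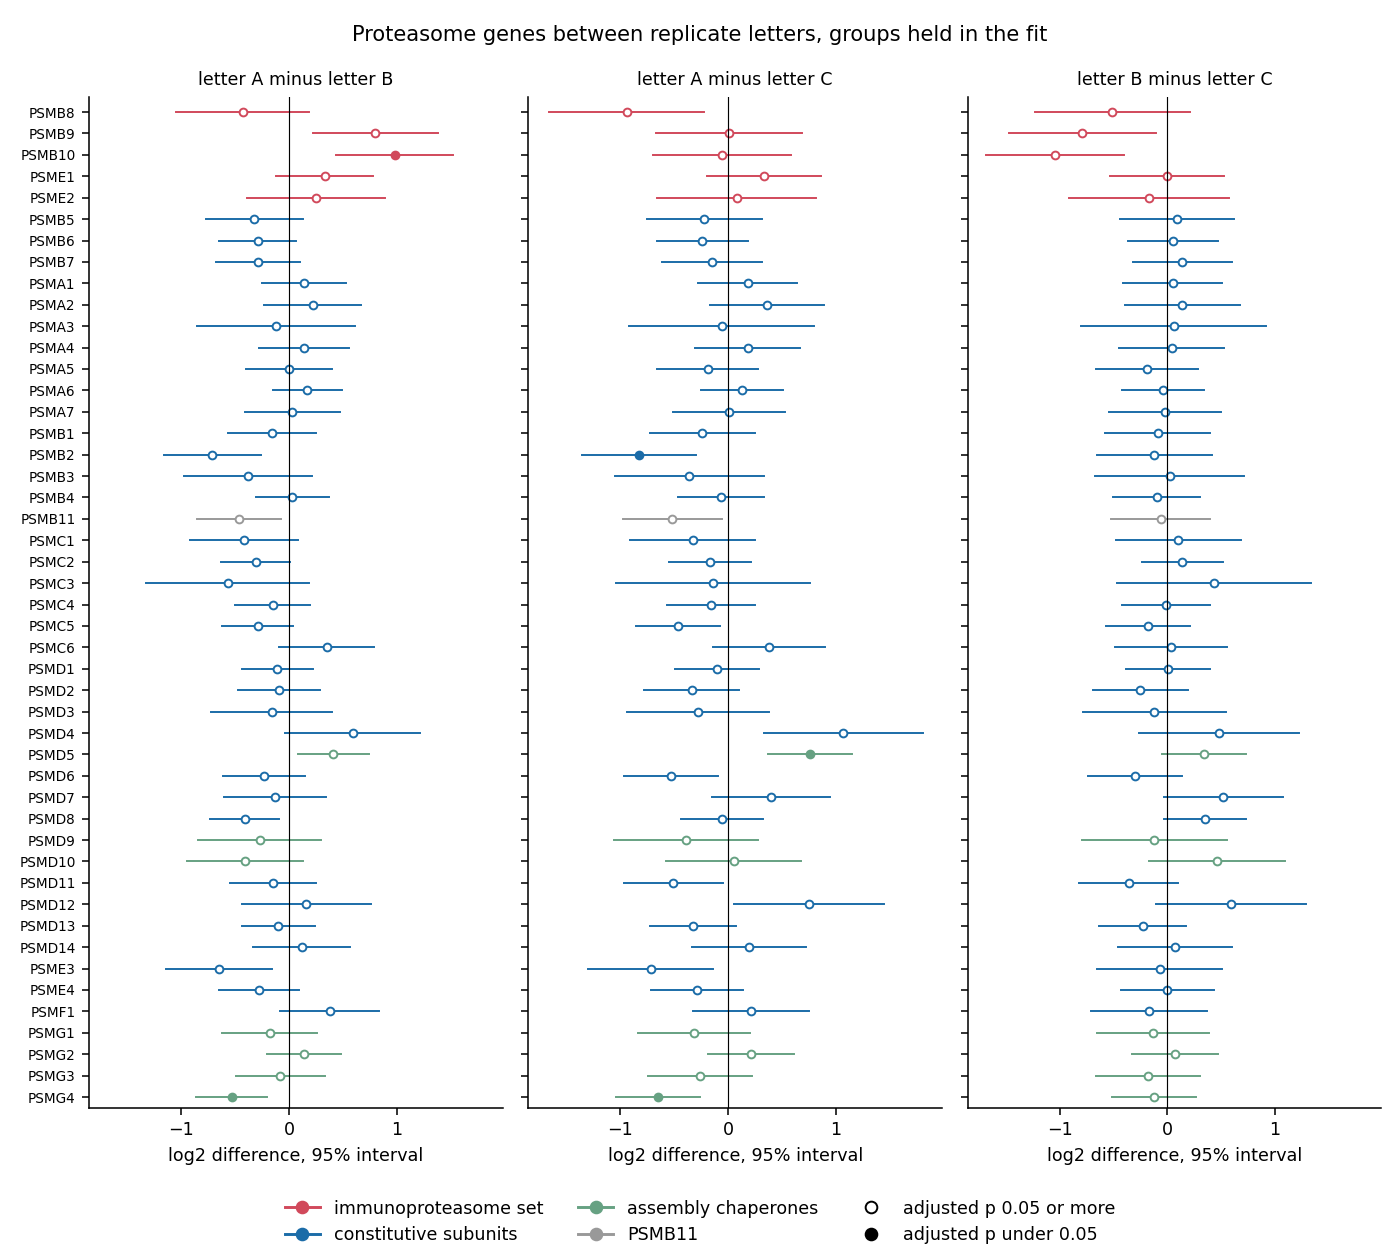
Log2 difference between replicate letters (x axis, the same in each panel) with its 95% interval from limma with the treatment group in the fit, for all 47 proteasome genes. Filled points have an adjusted p under 0.05: PSMB10 and PSMG4 for A minus B, and PSMB2, PSMD5 and PSMG4 for A minus C.

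The printed PSMB8, PSMB9, PSME1 and PSME2 probes are not the brightest of their genes, and their values by array are given here. The printed PSME1 probe was 5.07 and 4.40 in Control, 4.66, 4.70 and 4.36 in TAT, and 4.72, 4.72 and 4.97 in Gp120. The printed PSME2 probe was 4.30 and 3.01 in Control, 3.34, 3.73 and 3.25 in TAT, and 3.45, 3.64 and 3.64 in Gp120. The printed PSMB9 probe was 0.02 and -1.31 in Control, -0.41, -0.80 and -0.79 in TAT, and -0.11, -1.36 and -0.47 in Gp120, and letter B was below letter A in each group. The printed PSMB8 probe was -0.91 and -0.11 in Control, -0.68, -0.19 and 0.48 in TAT, and -0.03, -0.52 and 0.64 in Gp120. In it letter C was the highest array of both treated groups. Averaged over the groups that have both letters, the 3 PSMB9 probes gave A minus B differences of 0.80, 0.80 and 0.99, and the 3 PSMB8 probes gave -0.43, -0.27 and -0.74. PSMB8 and PSMB9 are neighbours on the chromosome and both are interferon-inducible, and as means over the groups their A minus B differences had opposite signs. The PSMB8 difference did not pass (adjusted p = 0.294 by limma), and in Gp120 its brightest probe was higher in A than in B by 0.23, the same sign as PSMB9 with 1.17. PSMB10 has a single probe, so its values rest on that probe alone.

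The other genes that passed between letters were PSMB2, PSMD5 and PSMG4. PSMB2, a structural beta subunit, was 2.84 and 3.26 in Control, 2.99, 3.60 and 3.60 in TAT, and 2.69, 3.80 and 3.89 in Gp120, and letter A was lower than C by -0.83 (SE 0.22; adjusted p = 0.0481 by limma). The difference from B, -0.71 (SE 0.19), had an adjusted p of 0.0503. PSMG4 was 4.00 and 4.63 in Control, 4.05, 4.46 and 4.68 in TAT, and 4.07, 4.63 and 4.70 in Gp120. Every letter A array was below every other array, by -0.53 (SE 0.14; adjusted p = 0.0475) against B and -0.65 (SE 0.16; adjusted p = 0.0404) against C. PSMD5 was higher in A than in C by 0.76 (SE 0.16; adjusted p = 0.0273). Averaged over the groups that have both letters, the second probes of PSMB2, PSMG4 and PSMD5 had A minus C differences of -0.62, -0.98 and 0.74.

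Letter and place on the slide overlap: the first slide row held the 3 letter A arrays and Control B, and the second row the 4 others. With the slide row as a block, A minus B rests on the 2 controls, the only letters A and B of 1 group that share a row. PSMB10 then had an A minus B difference of 1.49 (adjusted p = 0.106 by limma) and PSMG4 one of -0.63 (adjusted p = 0.228), and the A minus C differences were -0.48 for PSMB2 (adjusted p = 0.496), 0.73 for PSMD5 (adjusted p = 0.234) and -0.78 for PSMG4 (adjusted p = 0.204), so the signs stayed and all 5 calls were lost. These A minus C values also rest on the pair of controls, joined to B minus C within the second row, so they are 1 array against 1 array at that step. PSMD4, the ubiquitin receptor Rpn10, which without the block had an A minus C difference of 1.07 (SE 0.30; adjusted p = 0.0596), had 0.10 with it. The calls also depended on single arrays: leaving out any of 7 arrays other than TAT B ended the PSMB10 call, and its difference then lay between 0.73 and 1.13.

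The spread over the arrays is given as a description, with no test. The range between the lowest and highest array had a median of 1.21 log2 units over the 5 immunoproteasome genes (from 0.76 for PSME1 to 1.78, or 3.43-fold, for PSMB10), of 0.67 over the 34 constitutive genes, of 0.74 over the 7 chaperones and of 0.96 over all 12035 genes. By the brightest probe, the steadiest members were PSMD1, a scaffold of the base, with a range of 0.19 (1.14-fold), and PSMB4, a structural beta subunit, with 0.22 (1.17-fold). Other probes of these genes, well above background on all 8 arrays, were less steady. One of PSMD1 ran from -1.52 to -0.05, and the other PSMB4 probe ran from 4.47 to 5.47. Among constitutive genes PSMD4 had the widest range, 1.37, followed by PSMC3, an ATPase, with 1.31.

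Genes of the pathways around the proteasome are given from fixed lists. No gene of the lists for assembly, proteasome-bound factors, ubiquitin and p97, proteasome transcription, the interferon gamma axis, antigen processing or NRF2 stress passed in a treatment comparison. POMP, the chaperone that matures the core, was 6.71 and 6.58 in Control, 6.35, 6.29 and 6.57 in TAT, and 6.27, 6.41 and 6.59 in Gp120, with differences of -0.24 (SE 0.20) and -0.23 (SE 0.20). NFE2L1, the transcription factor that raises proteasome genes when the protease is inhibited, had 0.24 (SE 0.22) with Gp120 and ran from 3.67 to 4.14 in TAT and 3.78 to 4.16 in Gp120. Median TAT minus Control differences were -0.06 over 10 proteasome-bound factors, -0.10 over 9 ubiquitin and p97 genes, -0.05 over 10 transcription factors and their regulators, and -0.11 over 10 NRF2 and heat shock genes. With Gp120 they were -0.04, 0.04, 0.06 and 0.05. NPLOC4, a cofactor of the p97 unfoldase, had 0.71 (SE 0.31) with Gp120, and TXNL1, a proteasome-bound thioredoxin, -0.31 (SE 0.20) with TAT.

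Of the interferon gamma axis, which drives the inducible subunits, 15 of 19 listed genes were tested. With TAT 12 of them were below 0 (median -0.17), and with Gp120 10 were (median -0.53). CXCL10, an interferon-induced chemokine, had -1.41 (SE 0.49) with TAT, and IRF2, a repressor of interferon targets, -1.16 (SE 0.46) with Gp120. Both have an adjusted p of 0.998 or more by limma. IRF2 was -0.43 and -0.78 in Control, -0.8 in Gp120 A, -2.5 in Gp120 B and -2 in Gp120 C. Its low arrays, Gp120 B and C, were those from a separate scan, whose part in this difference was not tested. IRF1, the factor that binds the promoters of inducible subunits, was 3.36 and 2.10 in Control, 2.82, 2.13 and 2.21 in TAT, and 2.64, 1.41 and 2.53 in Gp120. Of 11 antigen processing genes, 5 were above 0 with TAT (median -0.06) and 10 with Gp120 (median 0.08). TAP1, the peptide transporter gene next to PSMB8 and PSMB9, was -1.87 and -2.27 in Control, -2.47, -2.39 and -1.83 in TAT, and -2.06, -2.11 and -1.80 in Gp120.

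Between letters, some of these genes were high in A with PSMB9 and PSMB10, and others were low. Of the 15 interferon axis genes 4 passed for A minus B, all higher in A, where 7.28% of all genes were called higher: GBP4, an interferon-induced GTPase, by 1.80 (SE 0.22; adjusted p = 0.00680 by limma), IRF1 by 1.06 (SE 0.22; adjusted p = 0.0281), IRF7 by 1.0 (SE 0.17; adjusted p = 0.0157) and GBP5 by 1.35 (adjusted p = 0.0446). The axis had 10 genes above 0 and 5 below (median 0.45). ERAP2, a peptide trimming enzyme of the endoplasmic reticulum, was higher by 1.27 (SE 0.13, adjusted p = 0.00414 by limma). It was the only antigen processing gene of 11 to pass (7 above 0 and 4 below, median 0.09). Of 10 tested genes of the NRF2 list 6 were above 0 (median 0.31). HMOX1, by 0.76 (adjusted p = 0.045 by limma), and TXNRD1, by 0.73 (adjusted p = 0.0404), passed as higher in A. NQO1 passed as lower, by -1.0 (adjusted p = 0.0346 by limma). Of 10 tested genes of the transcription list 6 were above 0 (median 0.13), and NFYC alone passed, lower in A by -0.53 (adjusted p = 0.0492 by limma). Of all genes 7.28% were called higher in A and 8.42% lower. Of the microglia and macrophage markers 12 of 14 were above 0 for A minus B (median 0.37; 2 of 14 passed, both higher in A, beside the same 7.28%), and their summed scaled signal was 593.1 to 684.2 in letter A, 459.3 to 590.7 in B and 531.7 to 594.6 in C. The summed signal of 5 lymphocyte genes was 29.5 to 38.7 in A, 61.3 to 86.4 in B and 94 to 147.6 in C. Singly these genes did not share a sign for A minus B: 3 were above 0 and 2 below (median 0.11, from -1.51 to 0.99). Of the 5 genes, 1 passed as higher in A and 1 as lower. For A minus C, where PSMB9 and PSMB10 had 0.01 and -0.06, 3 of 15 interferon axis genes passed as higher and 2 as lower, where 7.99% and 9.15% of all genes did, GBP4 among the first with 2.18 (SE 0.26; adjusted p = 0.00627) and CXCL10 among the second with -1.15 (SE 0.25; adjusted p = 0.0278). Whether the cell makeup of the letters had a part in these values was not tested.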

How the data were processed

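RNA of 8 samples was labelled with Cy3 and hybridised to 1 slide of a bovine array. The intensity values (processed signal, mean signal and background) are those the authors deposited as scanner output of Agilent Feature Extraction 11.5.1.1, per the file headers. The series value table holds log2 values that the authors deposited whose scale, centring and processing are unknown. Column medians were -3.33 to -3.18, and the table matched the mean of a name's probes within 0.02 for 86% and 85.5% of 32421 names on Gp120 B and C but for 16% to 18.8% on the other arrays.

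Control spots were left out, spots of a probe averaged, and log2 of the processed signal was taken minus each array's 75th percentile. A probe was kept if all arrays of some group had it well above background, and the brightest kept probe stood for its gene: 12035 genes. Symbols came from the files and from RefSeq (ARS-UCD2.0), which held all 47 members, for names only. Groups were compared with lmFit and eBayes of limma 3.58.1 in R 4.3.3 over all 8 arrays, and letters in a fit that also held the group, with Benjamini-Hochberg adjustment at 0.05. The script was tested on simulated data. The main fit of the treatment comparisons did not hold the letters. They were treated as pairing the samples only in the same-letter pairs and as a replicate block, an alternative. The rule for this was that every same-letter correlation be over 0.1, and the lowest was 0.377. This does not establish pairing. Control B correlated with TAT C at 0.417 and with TAT B at 0.406, so letters B and C were not separated there. With 2 controls, the deviations of one from their mean mirror those of the other. Genes named in full were the inducible and constitutive catalytic subunits and the other activators and inhibitor; others had the smallest unadjusted p in a comparison or in their list, disagreeing probes, or every array on one side of the controls. The members and lists were chosen with earlier results of these data known. Alternatives were background correction, normalisation, filters, probe rule, value table, blocks and leaving out each array. The number of arrays limits the precision. One gene of the lists is not reported here.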

Additional observations from a re-analysis of the deposited data

Results flagged for a closer look

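For 2 of the 5 immunoproteasome genes, both viral proteins lay on one side of the control in letter A and on the other side in letter B. PSME1 was below Control A by -0.28 with TAT and -0.12 with Gp120, and above Control B by 0.48 and 0.43. PSME2 was below Control A by -0.78 and -0.59, and above Control B by 0.40 and 0.61. The difference between the letters was not tested, since each pair is 1 array against 1 array and both pairs of a letter share its control. The same opposition was present in 9 of 34 constitutive genes (26.5%) and in 24.1% of all 12035 genes. The groups hold 2 or 3 arrays, so single arrays were not examined for outliers.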

How the results depend on the processing

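No proteasome gene passed in a treatment comparison under any of 20 settings (smallest adjusted p 0.386, limma). With the replicate block 0 genes passed in all 3 treatment comparisons, and at an unadjusted p under 0.05 it held 0, 2 and 1 proteasome genes; no treatment call changed. With the value table the genes called were 4 for TAT minus Control, 3 for Gp120 minus Control, 15 for TAT minus Gp120, 646 for A minus B, 657 for A minus C and 36 for B minus C. Without the filter on dim probes the letter counts were 1040, 1049 and 46, with the slide row as a block 42, 60 and 92, and with the scan as a block 827 and 1032 for A minus B and A minus C. Leaving out single arrays gave 0 to 1, 0 to 1 and 0 to 4 genes for the treatment comparisons (1 without Control A, 4 without Gp120 A), and 667 to 1043, 162 to 1938 and 14 to 150 for the letters. The immunoproteasome medians then ran from -0.53 to 0.39 with TAT, from -0.25 to 0.51 with Gp120 and from -0.25 to -0.05 for TAT minus Gp120. The constitutive medians ran from -0.10 to -0.03, from -0.039 to 0.13 and from -0.20 to -0.0082. The constitutive median for TAT was -0.14 with the slide row as a block. For Gp120 it was -0.16 with the scan as a block and -0.14 with the replicate block and the scan, and for TAT minus Gp120 it was 0.16 and 0.13, and 0.035 with the value table. With the scan as a block the Gp120 group rests on Gp120 A alone, whose constitutive mean was the lowest (-0.19). The gap moved by less than 1 SD under every alternative, from -0.34 to 0.44, -0.26 to 0.52 and -0.37 to 0.07 when single arrays were left out. Of 285 alternative values of the 5 immunoproteasome genes in the treatment comparisons, 56 changed sign. The 5 letter calls were lost in 9 to 14 of 16 alternatives each. The constitutive set without PSME3, PSME4 and PSMF1, and the replicate block with the slide row, were chosen after seeing the data. The cause of these changes was not tested. Dim probes such as that of PSMB11 limit what can be said at low signal.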

Other observations

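Probes described as proteasome genes but without one of the symbols used above were measured on the same arrays. A probe described as the PI31 inhibitor under another name was 0.95 and 0.79 in Control, 0.50, 0.84 and 0.86 in TAT, and 0.76, 0.57 and 1.11 in Gp120. A probe described as the ECM29 scaffold, which tethers the core to its cap, was -1.14 and -0.95 in Control, -0.84, -0.52 and -0.92 in TAT, and -1.02, -1.32 and -1.19 in Gp120. A further probe described as PSME1 was well above background on 7 arrays and lay between -4.88 and -3.39. It was not used in any comparison.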
